A study of Mus musculus with 6 samples.

Results

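The genes described here sense foreign or misplaced RNA and DNA, or pass on the signal, and were measured in MC38 tumor cells recovered from mice. They were chosen by name for this role, and are Ifih1, Ddx58, Dhx58, Zbp1, Eif2ak2, Tlr3, Mavs, Tmem173, Adar and Trex1. All 10 were found by symbol among the 52636 genes of the deposited table. MC38 is a colon adenocarcinoma line of the mouse. The 3 control libraries came from M1E5-Thy1.1 cells, and the 3 others from M1E5 cells labelled Zfx-KO and Thy1.2, in which the X-linked transcription factor gene Zfx was targeted with CRISPR ribonucleoprotein complexes. Both lines were untreated otherwise and were grown under the skin of female mice 6 to 10 weeks of age, and tumor cells were sorted from the digested tumors before RNA was taken. The Thy1 form went with the genotype in every library, so the effect of the edit and that of the cell line's history cannot be told apart. The series is described as one of clones, but the labels say neither how many clones were used nor which libraries came from separate mice, and they name no mouse strain or sorting marker. Replicate numbers are names given in accession order and pair no libraries across the groups. Adjusted p-values here therefore measure the spread between libraries, which may be technical.

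Cells watch for nucleic acids in several compartments. In the cytosol, RIG-I (Ddx58) and MDA5 (Ifih1) bind double-stranded RNA and signal through MAVS on mitochondria, and LGP2 (Dhx58) tunes them. ZBP1 binds left-handed Z-form RNA and DNA and can start cell death through RIPK3, while PKR (Eif2ak2) halts translation when it binds double-stranded RNA. TLR3 reads double-stranded RNA inside endosomes. STING (Tmem173) is the adaptor that answers the cyclic dinucleotide made by the DNA sensor cGAS. ADAR edits adenosines in double-stranded RNA, and TREX1 degrades DNA in the cytosol, and both keep the cell's own nucleic acids from setting off these sensors. Many of these genes are themselves induced by interferon.

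Promoter sequence from RefSeq (GRCm38.p6, 250 bases before to 50 bases after a start site) was at hand for 7 of the 10 genes, and not for Zbp1, Dhx58 and Tmem173. It was searched on both strands for the core of the interferon-stimulated response element, spelled GAAA, any 2 bases and GAAA again, which 3.44% of all 32851 promoters of that length held, and for AGGCCT, the core of the sequence bound by ZFX, which 10.26% held. In the Ifih1 promoter, which holds both, the 2 motifs do not overlap. The interferon element core was found for Ifih1, Ddx58 and Eif2ak2. The 30 bases around each match are shown because these 3 cytosolic sensors share the motif but not the result below. As deposited Ifih1 was called lower, Ddx58 was called higher and Eif2ak2 was not called. The calls of Ddx58 and Eif2ak2 depend on the scaling. Capitals mark the match, and Ddx58 holds it on the other strand.
Ifih1: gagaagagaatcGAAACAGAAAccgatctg
Ddx58: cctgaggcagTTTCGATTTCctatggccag
Eif2ak2: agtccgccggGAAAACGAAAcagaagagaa
These lie at chr2:62646206-62646235, chr4:40239804-40239833 and chr17:78882535-78882564, all on the minus strand, and the match begins 32, 2 and 18 bases after the start site. AGGCCT was found for Mavs, Ifih1 and Trex1. The 250 bases before the Mavs start site, chr2:131233813-131234062 on the plus strand, are shown because Mavs had the largest difference of the 9 genes measured; capitals mark AGGCCT.
Mavs: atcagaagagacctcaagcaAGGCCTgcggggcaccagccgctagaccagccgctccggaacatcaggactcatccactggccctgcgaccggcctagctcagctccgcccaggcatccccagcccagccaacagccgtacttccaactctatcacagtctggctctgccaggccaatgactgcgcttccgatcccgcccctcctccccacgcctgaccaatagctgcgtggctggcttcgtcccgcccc
A match in these letters is a description of the sequence and not a measured binding site. Variant spellings were not searched, so a promoter without a match may still hold such an element.

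Library totals, recovered from the deposited log2 CPM values (a gene's reads scaled to the library's total, on a log2 scale), were 42392848 to 42962578 reads in the controls and 37763096 to 65050908 in the Zfx-KO-labelled libraries. Zfx was higher in the Zfx-KO-labelled libraries (log2 fold change 0.64, SE 0.10, limma adjusted p = 0.000473, exact permutation p = 0.1, the smallest 3 against 3 libraries can give), against its label. Whether the counted reads lie in the edited part of the gene was not given in the sources used here, and directions below refer to the label only. Markers of colon epithelium were low: Cdx2 had 0 reads in all 6 libraries, Cdh1 had 38 to 98 reads in each, and Krt8 had 0 to 3 reads in the controls, against 524 to 1309 in the others. The summed level of 8 markers was 0.983 to 1.79 CPM in the controls, against 15.7 to 22.2 CPM in the others, with Krt8 and Krt19 called higher. Of 18 endothelial and pericyte markers 17 were higher and 1 (Ramp2) lower, with sums of 337 to 394 CPM in the controls, against 674 to 807 CPM in the others. Cspg4 and Pdgfrb weigh most in the control sums, at 7.886 and 6.595 log2 CPM, against 8.503 and 6.869 in the others. The sums hide larger differences of markers with few control reads. Rgs5, Abcc9 and Notch3 had 48, 0 and 22 reads in the controls, against 11162, 1297 and 2288 in the others. Of 15 fibroblast markers 11 were higher and 3 (Pdgfra, Pdpn and Fbln1) lower, with sums of 8501 to 10160 CPM against 15130 to 18360 CPM. With equal medians 9 were higher and 3 lower. Col3a1 weighs most in these sums, at 12.9 log2 CPM in the controls and 13.2 in the others. Col1a2, Fbln2 and Mfap5 had 529, 57 and 35 reads in the controls, against 226660, 24306 and 3400 in the others. Thy1, 1 of the 11, is in the name of both cell lines, so its level cannot be read as a fibroblast signal. Macrophage and monocyte markers, of which 1 of 12 (Lyz2) was called higher, summed to 185, 42.6 and 88.7 CPM in control replicates 1 to 3 and to 211, 81.0 and 101 CPM in the others. Dendritic cell markers summed to 13.1 to 16.3 CPM in the controls, against 11.9 to 15.8 CPM in the others, with overlapping groups. Lymphocyte markers summed to 0.0931 to 0.354 CPM and 0.446 to 0.497 CPM, with 1 of 4 tested (Nkg7) called higher and Ms4a1 at 0 reads. Nkg7 rests on 3 and 17 reads in overlapping groups (limma adjusted p = 0.0485). Neither Nkg7 nor Lyz2 was called with equal medians (limma adjusted p = 0.0661 and 0.0726). As deposited, 24.9% of all genes tested were higher and 19.5% lower. The part of these cells in the results below was not tested, and in bulk RNA fewer cells of a type and less RNA per cell cannot be told apart.

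**Figure D1:**
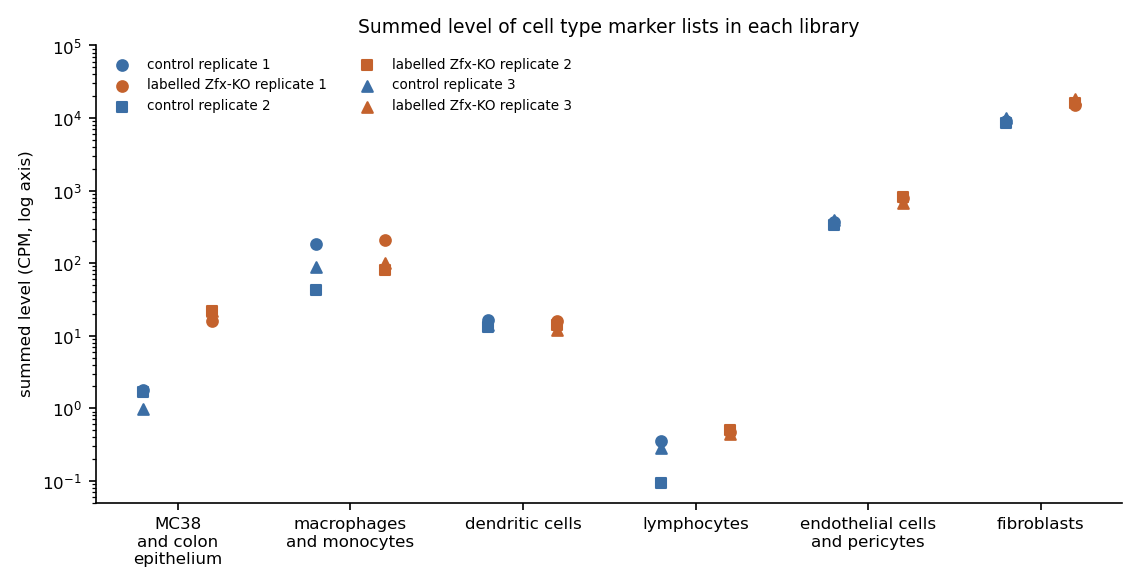
Summed level of each marker list in CPM on a log axis, with 1 point per library (control blue, labelled Zfx-KO orange, replicates by shape). Endothelial, pericyte, fibroblast, epithelial and lymphocyte sums are higher in every Zfx-KO-labelled library, while macrophage sums overlap.

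The sensors and adaptors did not move as a block: the adaptor gene Mavs fell sharply, Ifih1 fell slightly, and Zbp1, Dhx58, Tmem173, Tlr3 and Ddx58 rose. Of the 9 genes that passed the filter on low values, 5 were higher and 2 lower in the Zfx-KO-labelled libraries at a limma adjusted p under 0.05, and Eif2ak2 and Adar did not pass. Over all 20094 genes tested 24.9% were higher and 19.5% lower, 44.4% in all, and among the 6337 genes whose mean level lay within the range of these 9 the share called was 58.3% (22.3% higher, 36.0% lower). The median log2 fold change of the 9 was 0.22, beside 0.09 over all genes tested. Setting the libraries to equal medians lowers every log2 fold change by 0.21; 4 of the 9 were then higher and 3 lower, where all genes gave 16.0% and 31.6% (47.7% in all). With quantile normalization 6 were higher and 2 lower, where all genes gave 21.5% and 23.8% (45.4% in all).

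**Figure D2:**
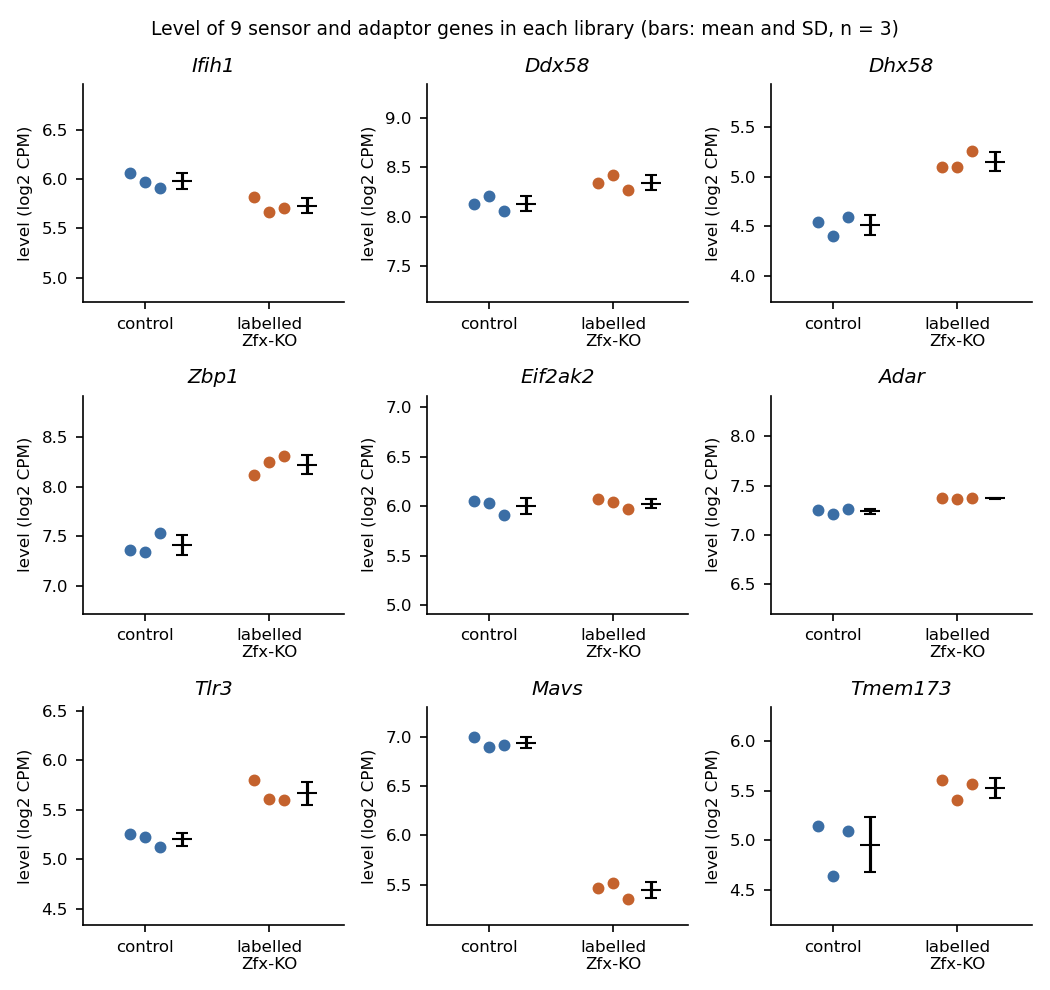
Level of 9 genes in log2 CPM, 1 panel per gene on axes of equal span, with 1 point per library and the mean and SD (n = 3) beside each group. Mavs drops from about 7 to under 5.6 in every Zfx-KO-labelled library, Zbp1 is above 8 in each of them, and the Eif2ak2 groups overlap.

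Among the cytosolic RNA helicases, the 3 members of the RIG-I family did not share a direction. Ddx58, which encodes RIG-I (chr4:40204849-40239828, minus strand, GRCm38 as for all genes here), stood at 8.13, 8.20 and 8.05 log2 CPM in the controls, against 8.34, 8.42 and 8.27 in the Zfx-KO-labelled libraries. The groups did not overlap (54.1% of all genes tested had groups without overlap), but the rise was small, with a log2 fold change of 0.21 (SE 0.06, limma adjusted p = 0.0186). With equal medians it was 0.00 (adjusted p = 0.99), and leaving out control replicate 1 or 3 or labelled replicate 1 or 2 ended the call (adjusted p = 0.054 to 0.0792).

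Ifih1, which encodes MDA5 (chr2:62595798-62646211, minus strand), stood at 6.07, 5.97 and 5.90 log2 CPM in the controls, against 5.82, 5.67 and 5.71 in the Zfx-KO-labelled libraries. Each Zfx-KO-labelled library was below each control. The gene fell by 0.25 log2 units (SE 0.07, limma adjusted p = 0.0124), and by 0.46 with equal medians (log2 fold change -0.46, adjusted p = 0.000244). The call as deposited ended without control replicate 1 (adjusted p = 0.0624) and without labelled replicate 2 (0.0535) or 3 (0.0506).

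Dhx58 (chr11:100694884-100704271, minus strand) encodes LGP2, which lacks the signaling domains of the other RIG-I family members and acts on them. Its control libraries stood at 4.54, 4.40 and 4.59 log2 CPM and those labelled Zfx-KO at 5.10, 5.10 and 5.27, so all of the latter were higher. It rose 1.56-fold (log2 fold change 0.64, SE 0.08, limma adjusted p = 0.000112), and by 0.43 with equal medians (adjusted p = 0.00257). Of its exon bases 5.8% also belong to the antisense gene Dhx58os, which had 166 reads in all libraries together against 2926 and 5102 reads of Dhx58 in the groups. The kit does not mark strand.

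Zbp1 (chr2:173206612-173218923, minus strand) had the largest rise of these genes. It stood at 7.36, 7.34 and 7.53 log2 CPM in the controls, against 8.11, 8.25 and 8.31 in the Zfx-KO-labelled libraries. The gap between the groups was several times their spread, 7.41 ± 0.10 against 8.22 ± 0.10 log2 CPM (SD, n = 3 each). The rise was 1.76-fold (log2 fold change 0.81, SE 0.07, limma adjusted p = 1.11e-05), and 0.60 with equal medians (0.000146). Of the genes of like level 2.38% were called higher and rose at least as much. Eif2ak2, the gene of PKR (chr17:78852564-78882573, minus strand), stood at 6.06, 6.04 and 5.91 log2 CPM in the controls, against 6.07, 6.04 and 5.97 in the others. Its groups overlapped almost fully, and its log2 fold change of 0.03 had a 95% interval of -0.12 to 0.17 (limma adjusted p = 0.783). The sign depends on the scaling, since equal medians gave -0.19 (adjusted p = 0.0247).

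The difference of 2 genes of the same library does not depend on the scaling between libraries, and shows how they moved relative to each other but not the direction of either. Zbp1 exceeded Ifih1 by 1.30, 1.36 and 1.63 log2 units in the controls and by 2.30, 2.58 and 2.60 in the Zfx-KO-labelled libraries. This difference widened by 1.06, that of Zbp1 over Adar by 0.68 (from 0.17 ± 0.09 to 0.85 ± 0.10, SD, n = 3), and that of Ddx58 over Ifih1 by 0.47 (from 2.15 ± 0.08 to 2.61 ± 0.13). In each of these 3 pairs the groups did not overlap, where single genes gave 54.1% without overlap and other pairs were not computed. The exact two-sided permutation p was 0.1, also adjusted over the 3 pairs, the smallest this design allows.

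**Figure D3:**
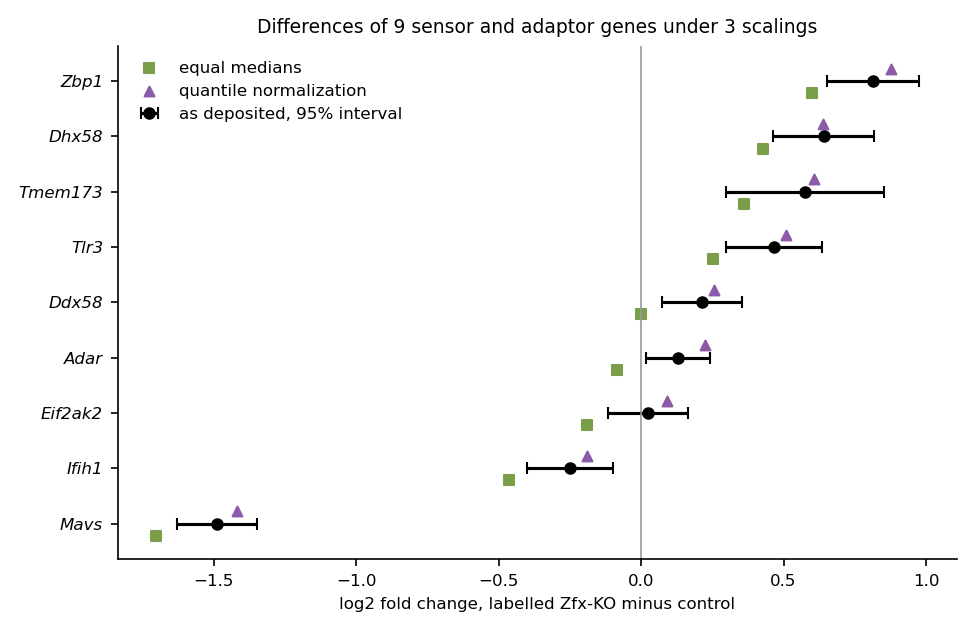
Log2 fold change (labelled Zfx-KO minus control) of 9 genes, as deposited with the 95% interval and under 2 other scalings. Mavs is far below 0 and Zbp1, Dhx58, Tmem173 and Tlr3 above 0 under all 3 scalings, Ddx58 reaches 0 with equal medians, and Adar and Eif2ak2 change sign there.

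In the endosomal branch, Tlr3 (chr8:45395665-45410619, minus strand) was higher. It stood at 5.26, 5.22 and 5.12 log2 CPM in the controls, against 5.80, 5.61 and 5.60 in the Zfx-KO-labelled libraries. The lowest of the latter was above the highest control. The rise was 1.38-fold (log2 fold change 0.47, SE 0.07, limma adjusted p = 0.000613), and 0.25 with equal medians (0.0153).

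The 2 adaptor genes moved in opposite directions. Mavs, on chromosome 2 from 131234067 to 131248025 (GRCm38, plus strand), stood at 6.998, 6.90 and 6.92 log2 CPM in the controls, against 5.47, 5.52 and 5.36 in the Zfx-KO-labelled libraries. These values rest on 15705 and 6091 reads per group, and the spread within groups was small (6.94 ± 0.05 against 5.45 ± 0.08, SD, n = 3). The gene was 2.81-fold lower (log2 fold change -1.49, SE 0.06, 95% interval -1.63 to -1.35, limma adjusted p = 1.09e-07). Of all genes tested 1.86% were called lower and fell by as much or more, and of those of like level 0.647%. No exon of another gene overlaps Mavs in GENCODE M21, and its value ran from -1.70 to -1.42 over the other settings tried.

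Tmem173, the gene of STING (chr18:35733678-35740554, minus strand), stood at 5.14, 4.63 and 5.09 log2 CPM in the controls, against 5.60, 5.41 and 5.57 in the Zfx-KO-labelled libraries. Control replicate 2 was the lowest, and it was also the library with the lowest macrophage marker sum. The rise was 1.49-fold (log2 fold change 0.57, SE 0.12, limma adjusted p = 0.00373); it was 0.41 without control replicate 2 (adjusted p = 0.00165) and 0.36 with equal medians (0.0412). Within each group Tmem173 was highest in the library with the highest macrophage sum, and the part of macrophages in this result was not tested.

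The genes around Mavs included both higher and lower ones. Of 21 tested genes with a start within 500 kb on either side, 5 were higher and 7 lower, and 2 fell by at least as much as Mavs. Among the 16 with a mean of at least 0 log2 CPM 2 were higher and 7 lower, with a median log2 fold change of -0.13. All genes tested gave 24.9% higher and 19.5% lower. Those whose mean level lay within the range of the 9 members gave 22.3% higher and 36.0% lower. The nearest on either side differed in direction: Ap5s1, an adaptor complex gene at -23.6 kb, rose by 0.63 (SE 0.09, limma adjusted p = 0.000238), and Pank2, a coenzyme A synthesis gene at 28.4 kb, fell by 0.50 (SE 0.07, limma adjusted p = 0.000143). The genes with falls beyond that of Mavs were Hspa12b, with a log2 fold change of -1.86, and the spermine oxidase gene Smox, with -3.18. Rnf24, at 118.8 kb between Mavs and Smox, fell by 0.83 (SE 0.07, limma adjusted p = 7.99e-06).

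**Figure D4:**
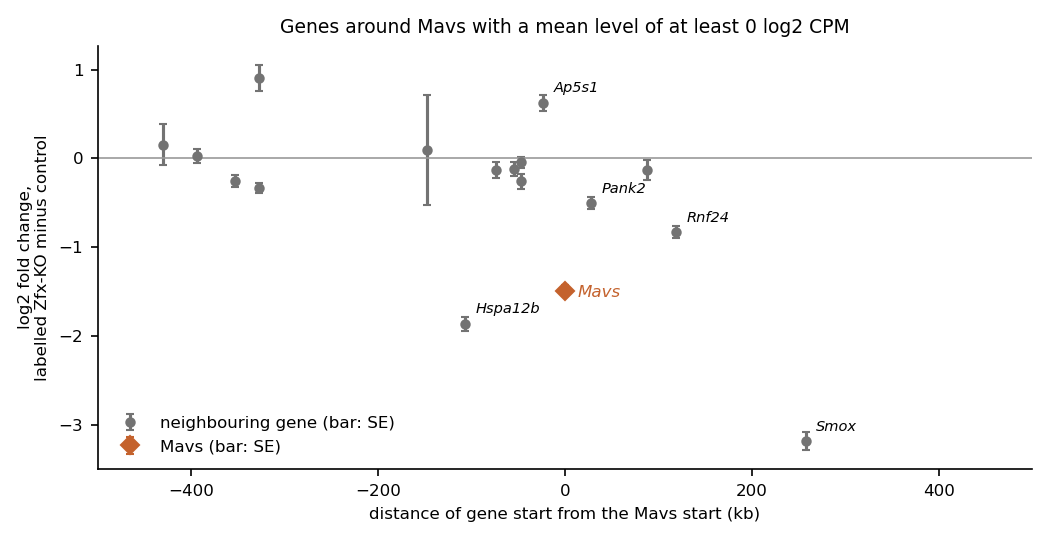
Log2 fold change with SE of Mavs and the 16 neighbouring genes with a mean level of at least 0 log2 CPM, by distance of the gene start from that of Mavs in kb. Mavs, Hspa12b and Smox lie lowest; Ap5s1 lies above 0 between Hspa12b and Mavs, and the 3 genes between Mavs and Smox lie below 0.

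Of the genes that edit or clear nucleic acids, Adar could be measured and Trex1 could not. Adar (chr3:89715022-89753446, plus strand) stood at 7.25, 7.21 and 7.26 log2 CPM in the controls, against 7.38, 7.37 and 7.37 in the Zfx-KO-labelled libraries. The groups did not overlap, but the log2 fold change of 0.13 (SE 0.05, 95% interval 0.02 to 0.24) missed the threshold (limma adjusted p = 0.0572). It was 0.23 with quantile normalization (adjusted p = 0.00458) and -0.08 with equal medians (0.279). Of the Adar exon bases 22.8% also lie in the gene Chrnb2 on the other strand, which had 1087 reads in all libraries together. Trex1 (chr9:109057933-109059734, minus strand) had 0 reads in all 6 libraries, and all of its 1147 exon bases lie within exons of Atrip on the same strand in GENCODE M21. Of the 148 protein-coding genes whose exons are covered this way on the same strand 62.8% had 0 reads everywhere, against 27.4% of the 16465 with under 1% of their exon bases shared. The value of Trex1 is therefore listed at 0 and is not read as a level.

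Compared per exon length, as CPM per kilobase of exon (RPKM), Zbp1 and Ddx58 were the most abundant sensors in both groups. In the controls Zbp1 had 78.7 ± 5.9 RPKM and Ddx58 72.3 ± 3.8 (SD, n = 3 each), and their ranges overlapped. Mavs followed at 39.6 ± 1.5 and Adar at 25.2 ± 0.4 RPKM, each apart from the next. Eif2ak2 (14.9 ± 0.8 RPKM) and Tmem173 (13.6 ± 2.5) overlapped, as did Tmem173 and Ifih1 (11.6 ± 0.6), and Dhx58 at 9.47 ± 0.63 and Tlr3 at 8.20 ± 0.39 RPKM closed the order. In the Zfx-KO-labelled libraries Zbp1 stood alone at 138 ± 9 RPKM, above Ddx58 at 83.9 ± 4.4. Mavs went from place 3 to place 7 at 14.1 ± 0.8 RPKM, a level that overlapped that of Dhx58 (14.8 ± 1.0), and Ifih1 became the last at 9.71 ± 0.53 RPKM, below Tlr3 at 11.3 ± 0.9.

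Other genes of nucleic acid sensing also moved in both directions, and each of 6 lists by role held both higher and lower genes. Of 76 such genes in 6 lists, 73 could be tested, 29 were higher and 21 lower, and their median log2 fold change was -0.01 beside 0.09 over all genes tested, of which 24.9% were higher and 19.5% lower. With equal medians 16 were higher and 34 lower, where all genes gave 16.0% and 31.6%. The counts of each list below stand against these same shares. Among the 6337 genes at the level of the members, 22.3% were higher and 36.0% lower as deposited. No list was tested as a list.

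Of 20 genes that carry or tune the signal of the RNA helicases 5 were higher and 9 lower, with a median of -0.18 (1 and 12 with equal medians). The ubiquitin ligase gene Trim25, which activates RIG-I, stood at 7.56, 7.67 and 7.54 log2 CPM in the controls, against 6.98, 7.05 and 6.95 in the others, a log2 fold change of -0.59 (SE 0.06, limma adjusted p = 2.28e-05). Prkra, whose product PACT activates PKR and RIG-I, fell from 5.39 ± 0.06 to 4.82 ± 0.09 log2 CPM (SD, n = 3). Falls were also seen for Dhx15, a helicase gene, and for Traf3, an adaptor gene that acts below MAVS, which had log2 fold changes of -0.48 and -0.43. The kinase gene Tbk1 and the transcription factor gene Irf3, both of which act after MAVS and STING, did not pass, with -0.17 and -0.18 (limma adjusted p = 0.128 and 0.0514), but passed with equal medians at -0.38 and -0.39 (0.00174 and 0.00112).

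In the endosomal Toll-like receptor list 3 of 9 were higher and 2 lower (2 and 2 with equal medians). Ticam1, which encodes TRIF, the adaptor of TLR3, stood at 3.93, 3.99 and 4.21 log2 CPM in the controls, against 4.81, 4.89 and 4.91 in the others. It rose by 0.83 (SE 0.09, limma adjusted p = 3.80e-05), so that the receptor Tlr3 and its adaptor both rose. The kinase gene Irak4 rose by 0.65 and Irak1 fell by 0.47, and Unc93b1, which carries these receptors to endosomes, rose by 0.40 as deposited and had 0.18 with equal medians (limma adjusted p = 0.222). Tlr7, Tlr8 and Tlr9, receptors of single-stranded RNA and of DNA, had 69, 69 and 99 reads in the controls, against 66, 62 and 117 in the others. Their groups overlapped, and in each group all were highest in the library with the highest macrophage sum.

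For sensing and clearance of DNA 7 of 15 were higher and 4 lower (4 and 8 with equal medians). Cgas, the DNA sensor gene above STING, listed in the table as Mb21d1 and named here after its value was seen, stood at 5.34, 5.58 and 5.32 log2 CPM in the controls, against 4.54, 4.77 and 4.54 in the Zfx-KO-labelled libraries. It fell by 0.80 (SE 0.09, limma adjusted p = 7.56e-05), while Tmem173 rose. A group of AIM2-like genes were higher from low levels: Aim2, an inflammasome sensor of DNA, rose from 0.71 ± 0.10 to 2.65 ± 0.15 log2 CPM, Ifi204 from 1.80 ± 0.31 to 3.47 ± 0.26 and Ifi203 from 3.35 ± 0.12 to 4.85 ± 0.12 (SD, n = 3 each). Ifi203 and Ifi204 have close copies, so their reads are uncertain. Rnaseh2a, the catalytic subunit of the RNase that removes ribonucleotides from DNA, fell by 0.54 (SE 0.06, limma adjusted p = 7.09e-05).

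Of 5 genes around ZBP1 in cell death 3 were higher and 1 lower (2 and 2 with equal medians). Ripk3, the kinase that ZBP1 engages, stood at -1.32, -3.12 and -2.25 log2 CPM in the controls, against 1.49, 1.55 and 1.48 in the others, on 28 and 396 reads. All Zfx-KO-labelled libraries were higher, by 3.74 log2 units (SE 0.41, limma adjusted p = 4.65e-05). Mlkl, the pore-forming protein that RIPK3 activates, rose from 6.33 ± 0.08 to 6.92 ± 0.06 log2 CPM (SD, n = 3). Ripk1 rose by 0.32 as deposited and had 0.10 with equal medians (limma adjusted p = 0.238), and Casp8, the protease that restrains this form of death, fell by 0.44 (SE 0.06, limma adjusted p = 0.000194).

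The effectors of double-stranded RNA had 7 of 13 higher and 2 lower, with a median of 0.36 (6 and 4 with equal medians). Oas2, an oligoadenylate synthetase gene, stood at 6.05, 6.28 and 6.29 log2 CPM in the controls, against 7.09, 7.53 and 7.26 in the others. It rose by 1.09 (SE 0.11, limma adjusted p = 2.42e-05), and Oas1g of the same family rose by 1.43; Oas1g belongs to a cluster of close copies and is uncertain. Stau1, a binder of double-stranded RNA in messenger decay, fell by 0.88 (SE 0.06, limma adjusted p = 1.36e-06).

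In type I interferon signaling 4 of 11 tested were higher and 3 lower (1 and 6 with equal medians). The list held 3 genes of interferons themselves, and no interferon alpha gene: Ifnb1 had 3 reads in the controls, against 1 in the Zfx-KO-labelled libraries, and the type III interferon genes Ifnl2 and Ifnl3 had 0 in all, which allows up to 3 reads or 0.0461 to 0.0794 CPM a library. The receptor gene Ifnar1 fell from 6.97 ± 0.02 to 6.44 ± 0.03 log2 CPM (SD, n = 3, limma adjusted p = 2.01e-05). Of the kinases bound to that receptor, Tyk2 rose by 0.70 (SE 0.08) and Jak1 fell by 0.33 (SE 0.06). The repressor gene Irf2 fell by 0.41.

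**Figure D5:**
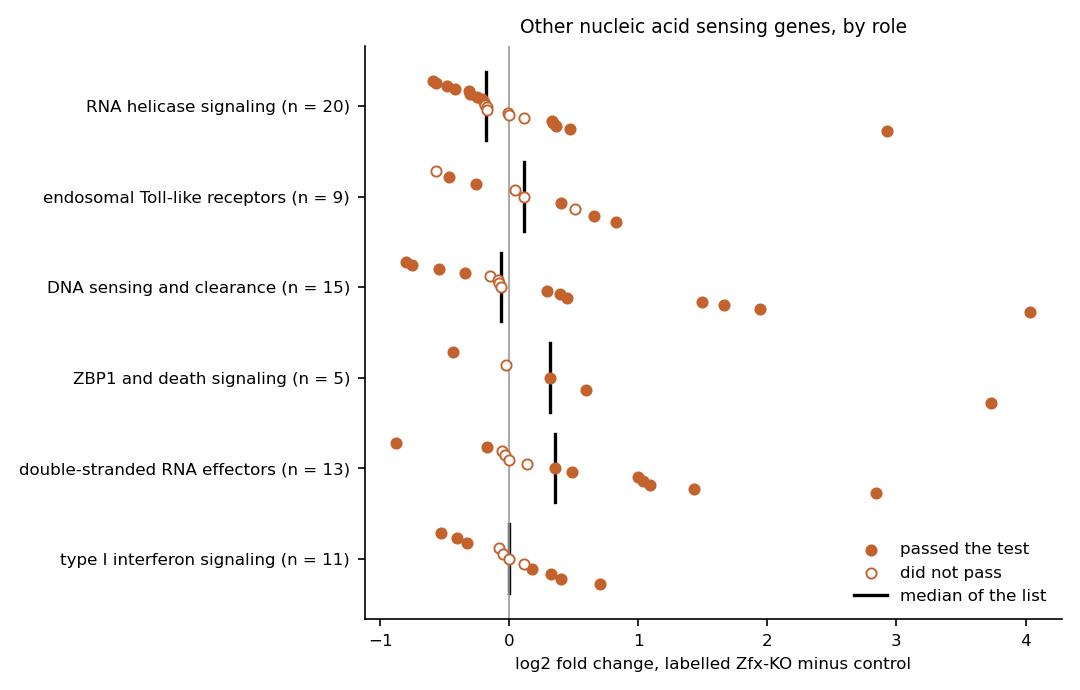
Log2 fold change (labelled Zfx-KO minus control) of 73 other nucleic acid sensing genes in 6 lists, with 1 point per gene, filled where the limma adjusted p was under 0.05, and a line at each list's median. RNA helicase signaling genes lie mostly below 0 (median -0.18), and Ripk3 lies beyond 3 among the death signaling genes.

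Profiles across the 6 libraries were set beside those of the 73 pathway genes, by the root mean square difference of log2 levels after each gene's mean was removed. The pathway gene most like Zbp1 was Ticam1 (0.04 log2 units), and the most like Dhx58 was Tyk2 (0.06). Tlr3 was nearest to Mlkl (0.08) and Tmem173 to Unc93b1 (0.09). For Ifih1 it was the MAVS regulator gene Pcbp2 (0.03), and for Ddx58 it was Ripk1 (0.06). Mavs had no close match, its nearest being Stau1 (0.32) and Cgas (0.36). The measure keeps the size of each gene's difference between the groups. It therefore largely restates how near 2 log2 fold changes are, and the place of Mavs follows from its own large fall. These are likenesses over 6 libraries in 2 groups only.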

How the data were processed

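RNA of sorted tumor cells was sequenced from a single end after transposase-based library preparation, per the labels' protocols. The authors deposited log2 values for 52636 genes; a common floor of -5.48715 marks log2 CPM with a prior of 1 read, and 100% of values below 2000 reads came out whole within 0.05 reads. The submitters' processing notes name mm10 and GRCh38 without a role; the aligner was not given in the sources used here. Gene identifiers were matched to GENCODE M21 (99.6%). The exon lengths deposited by the authors (summed bases per gene) served for RPKM.

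Tests covered genes above the floor in 3 or more libraries whose mean exceeded it by 1 log2 unit or more, with limma 3.58.1 in R 4.3.3 (intensity trend, two-sided, Benjamini-Hochberg over 20094 genes, threshold 0.05). No pair with Trex1 was computed. Summaries used scipy 1.17.1, numpy 2.4.6 and pandas 2.3.3 under Python 3.11.15, and figures matplotlib 3.10.9. On simulated data for the Zfx-KO-labelled libraries against the controls (20094 genes), the test recovered 30% of genes changed 1.25-fold, 46% at 1.5-fold, 74% at 2-fold and 92% at 4-fold, and called 6 of 19894 unchanged genes. The simulation changed 50 genes per fold and gave every gene the same dispersion of 0.00421. In the data themselves 44.4% of genes were called, so these rates need not hold there. No pair of replicates matched within sampling noise (chi-square 13.2 to 25.4 per gene). Floors from reads cover counting error only.

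Members and lists were chosen with earlier results of these data known. All members are named, up to 4 genes with the smallest p from each pathway list (1 of these is not reported here), called or absent markers, and the nearest profiles; Cgas, Nlrx1, Enpp1, Tlr7, Tlr8, Tlr9, Tbk1, Irf3, the interferon genes and the neighbours of Mavs were named after their values were seen. Alternatives were other filters, scalings, variance models, pseudocounts (0.25 and 4 times), sample weights, limma voom on recovered reads, thinning to the shallowest library, and leaving out each library.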

Additional observations from a re-analysis of the deposited data

How the results depend on the processing

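Mavs, Zbp1, Dhx58, Tlr3 and Tmem173 kept their direction and passed under all 17 alternatives. With equal medians 3224 genes were higher and 6357 lower (5003 and 3924 as deposited), and 16 pathway genes were higher and 34 lower. The members called lower numbered 1 without the intensity trend, and 1 to 2 when each library was left out. Ifih1 (adjusted p = 0.0589) and Ddx58 (0.084) missed the threshold without the trend. Eif2ak2 turned to -0.189 with equal medians (adjusted p = 0.0247) and ran from -0.019 (without control replicate 3) to 0.052 when each library was left out, and Adar turned to -0.083 with equal medians; Adar passed with the stricter filter (0.046), quantile normalization (0.00458), sample weights (0.0447) and thinned reads (0.0456). The causes were not tested. Leaving out each library gave 7323 to 8719 genes called, 5 to 7 members and 40 to 49 pathway genes. limma voom called 8979 genes and 7 members. The widening of Zbp1 over Ifih1 ran from 1.00 to 1.16, of Zbp1 over Adar from 0.64 to 0.74 and of Ddx58 over Ifih1 from 0.39 to 0.51, with an exact permutation p of 0.2 each, the smallest for 2 against 3 libraries. Of 476 values of the other named genes 471 kept direction and call; the 5 that lost it belonged to Unc93b1 and Ripk1. No paired analysis was possible because the labels give no replicate numbers, and numbers given in accession order pair no libraries. Genes near the floor, such as Ripk3, are limited by depth.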

Other observations

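A pair of genes that restrain these pathways, named after their values were seen, were higher in the Zfx-KO-labelled libraries from a level near the floor. Nlrx1, whose product is described as an inhibitor of MAVS on mitochondria, had 11, 3 and 2 reads in the controls, against 37, 30 and 62 in the others. Its log2 fold change was 2.93 (SE 0.51, limma adjusted p = 0.00103), 3.53 without control replicate 1, 2.34 with a pseudocount 4 times as large and 2.23 with quantile normalization. Enpp1, which encodes the enzyme that breaks down the messenger between cGAS and STING, had 1, 1 and 5 reads in the controls, against 38, 44 and 68 in the others, with a log2 fold change of 4.04 (SE 0.48, limma adjusted p = 8.61e-05). It was 3.07 with a pseudocount 4 times as large and 3.35 with quantile normalization, so the size of both differences depends on these settings. In the same libraries most endothelial, pericyte and fibroblast markers were higher, and the part of such cells in these values was not tested.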
